A study of Mus musculus with 12 samples.

Results

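Thyroid hormone activation and reception in adipose tissue was read from 5 genes, Dio2, Thra, Thrb, Klf9 and Slc16a10, among the 20660 named genes on the array. They were chosen by function, with earlier results of these data known. Every probe of them on the array was taken by matching its RefSeq accession to a gene symbol, which gave 8 probes, all of them tested. The samples were total RNA of subcutaneous white adipose tissue (scWAT) and brown adipose tissue (BAT) from male mice of 12 weeks on the C57Bl6/J background, all fed a diet with 60% of its calories from fat. Wild-type (WT) littermates were compared with Lr11-/- mice, which lack the sorting receptor LR11 (gene symbol Sorl1) in every cell of the body. Both depots of both genotypes gave 4 groups, each of 3 one-colour Agilent arrays. The descriptions give both 4 weeks of the diet and a start at weaning, so the length of feeding is not settled. They do not say whether the 3 samples of a group came from separate animals, and the p-values measure the spread between these samples. The genotype comparison asks whether loss of LR11 moved these genes within a depot, and the tissue comparison how far the depots differed within a genotype.

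Thyroxine, the main hormone released by the thyroid, is a prohormone. It enters cells through membrane transporters such as MCT10, the product of Slc16a10, and type 2 deiodinase, the product of Dio2, removes an iodine from its outer ring to give the active hormone triiodothyronine. Triiodothyronine binds the nuclear receptors TR-alpha (Thra) and TR-beta (Thrb), which sit on DNA mostly as partners of retinoid X receptors and switch between corepressors and coactivators. Klf9 encodes a zinc finger transcription factor that triiodothyronine induces in many tissues. In brown fat, noradrenaline raises cyclic AMP, which induces Dio2, and the triiodothyronine made locally acts with cyclic AMP on Ucp1, the gene of the heat-producing uncoupling protein.

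The promoter of Dio2 is shown because the cyclic AMP response element through which the gene is induced can be read in it. The 250 bases before its start, RefSeq sequence of build GRCm38.p6, chr12:90739039-90739288 on the minus strand, are given 5′ to 3′ with the full cyclic AMP response element in capitals.
Dio2: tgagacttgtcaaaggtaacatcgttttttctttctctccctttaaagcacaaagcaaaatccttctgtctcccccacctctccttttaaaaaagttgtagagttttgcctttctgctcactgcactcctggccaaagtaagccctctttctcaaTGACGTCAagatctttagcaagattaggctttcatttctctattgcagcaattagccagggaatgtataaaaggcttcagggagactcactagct
The element, TGACGTCA, lay at positions -95 to -88 from the start, and reads the same on both strands. It occurred in 1.55% of the 32851 promoter windows of 250 bases. Its first 5 letters, TGACG, searched on both strands, were present in 17.8% of windows, and they overlap the full element wherever that occurs. Promoters of 4 of the 5 genes, all but Thra, were in the table used. Klf9 and Thrb each held the shorter motif without the full element, and Slc16a10 held neither. The 3 stretches around the motif are set out with TGACG in capitals.
Dio2, chr12:90739115-90739147, minus strand: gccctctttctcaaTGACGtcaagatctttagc
Klf9, chr19:23141166-23141198, plus strand: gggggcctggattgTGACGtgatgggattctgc
Thrb, chr14:17660890-17660922, plus strand: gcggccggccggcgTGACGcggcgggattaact
A thyroid hormone response half-site, AGGTCA, searched on both strands and found in 14% of windows, was present among these promoters only upstream of Thrb, at positions -184 to -179. Thrb had a second promoter window in the table, in which none of the motifs occurred. These matches describe letters and say nothing of binding in these samples.

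Levels are given throughout as log2 of the scanner's processed intensity minus the 75th percentile of the same array, so that 0 marks that percentile, and a level of one probe is not comparable with that of another. Differences are log2 differences between group means from limma, fitted to all 12 arrays, with p-values adjusted by the Benjamini-Hochberg method over 32121 probes and called at 0.05. Sorl1, the deleted gene, ran from 0.11 to 1.21 on the 6 WT arrays and from -3.93 to -2.45 on the 6 Lr11-/- arrays, which matched every genotype label. Replicates were numbered here in accession order, since the labels number none. Replicate 1 of each group came from a first array series and replicates 2 and 3 from a second. No spot was saturated, and from 32377 to 37002 spots of each array rose well above background.

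Some arrays stood apart in their tissue markers. The summed level of 8 skeletal muscle genes (Ckm, Acta1 and others) lay between 9.38 and 11.88 on 5 arrays, WT scWAT replicate 3, Lr11-/- scWAT replicate 1, WT BAT replicates 1 and 3, and Lr11-/- BAT replicate 1, with all 8 genes well above background. On the other 7 arrays it lay between -0.22 and 1.75. The 6 adipocyte genes were detected on every array, with summed levels from 8.62 on WT scWAT replicate 2 to 10.95, and that array also had the highest sum of 4 macrophage genes, at 8.02 against 5.48 to 6.64 on the other 11 arrays. The brown adipocyte list of 6 genes ran from 0.50 to 8.03 in WT scWAT, reached 8.64, 11.70 and 11.82 on the Lr11-/- scWAT arrays, and spanned 11.35 to 11.78 across BAT. Epithelial genes had sums of 3.08 on WT scWAT replicate 3 and 5.42 on Lr11-/- scWAT replicate 1 and below 0 on the rest. In whole tissue, fewer cells of a type and less RNA per cell cannot be told apart.

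Dio2 showed the widest range of the 5 genes, low in WT scWAT, high in BAT of both genotypes, and split within Lr11-/- scWAT. Its probe, A_51_P208603, read -1.20, -0.99 and -1.59 on the 3 WT scWAT arrays. In Lr11-/- scWAT it read -1.12, 4.90 and 4.29. Replicate 1 of the Lr11-/- scWAT group lay within the WT range, and replicates 2 and 3 were at the level of BAT. In WT BAT the levels were 4.44, 4.00 and 1.67, and in Lr11-/- BAT 5.11, 4.20 and 5.14. All 6 BAT arrays were above all 3 WT scWAT arrays. The lowest of them, WT BAT replicate 3, was rich in skeletal muscle transcripts. So were WT BAT replicate 1, at 4.44, and Lr11-/- BAT replicate 1, at 5.11. As processed intensities, the scWAT arrays read 276, 223 and 189 in WT and 272, 12881 and 7286 in Lr11-/- mice, and the split within the Lr11-/- group was thus present before scaling.

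**Figure D1:**
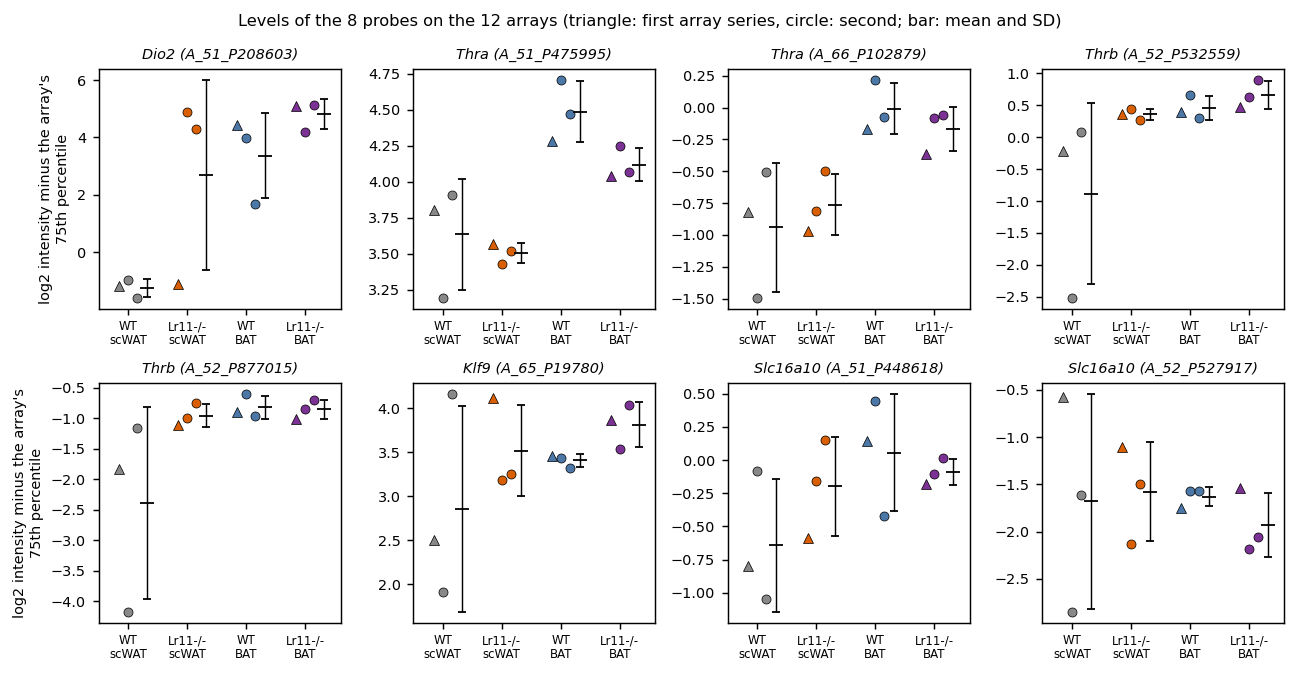
Level of each of the 8 probes on the 12 arrays, in log2 units relative to the array's 75th percentile (vertical axis, a separate scale in each panel), by group. Triangles are arrays of the first series, circles those of the second, and the bar beside each group is its mean with SD (n = 3). Dio2 is at -1.12 on the triangle of Lr11-/- scWAT and at 4.90 and 4.29 on its circles, and both Thrb probes have their lowest point on the same WT scWAT array.

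The mean Dio2 level was -1.26 ± 0.31 (SD, n = 3) in WT scWAT, 2.69 ± 3.31 in Lr11-/- scWAT, 3.37 ± 1.49 in WT BAT and 4.81 ± 0.53 in Lr11-/- BAT. In order from the lowest to the highest group mean, no pair of neighbours passed the threshold. The difference between Lr11-/- and WT scWAT was 3.95 (SE 1.32, 95% interval 1.04 to 6.85), 15.4-fold, with an adjusted p of 0.092 by limma, and the groups overlapped (exact permutation p = 0.2, two-sided, where 3 against 3 arrays cannot go below 0.1). WT BAT was 0.68 above Lr11-/- scWAT (95% interval -2.23 to 3.59, adjusted p = 0.94), a comparison in which 0.0965% of probes were called. Lr11-/- BAT was 1.45 above WT BAT (95% interval -1.46 to 4.35, adjusted p = 1.0). The change of genotype was 2.50 larger in scWAT than in BAT, with an interval of -1.61 to 6.61 and an adjusted p of 0.63.

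The genotype difference of Dio2 in scWAT was not alike in the array series. In the first series, with 1 array a group and no test, it was 0.07, and in the second series alone it was 5.88 with an adjusted p of 0.0078. In that series 21.7% of the probes tested were called in the same comparison, against 5.27% over all 12 arrays. Without Lr11-/- scWAT replicate 1, the difference was 5.85 (adjusted p = 0.0011, 19.6% of probes called), and the difference of the genotype effects between depots was 4.41 (adjusted p = 0.039, 3.77% of probes called). Without Lr11-/- scWAT replicate 2 or 3 it was 2.84 or 3.15, with adjusted p-values of 0.28 and 0.31. Lr11-/- scWAT replicate 1, the array with low Dio2, was also rich in skeletal muscle and epithelial transcripts and the lowest of its group for the brown adipocyte list. Without the 5 arrays rich in skeletal muscle transcripts the difference was 5.68 (adjusted p = 0.014, 9.82% of probes called), and with the skeletal muscle list as a covariate it was 3.84 (adjusted p = 0.064). The second series and the arrays poor in skeletal muscle transcripts both lack Lr11-/- scWAT replicate 1, the array with low Dio2. The larger differences in these settings and in the fit without that array thus rest on the same removal. The settings on skeletal muscle transcripts were chosen after seeing the data. The part of these other tissues in the split was not tested further.

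**Figure D2:**
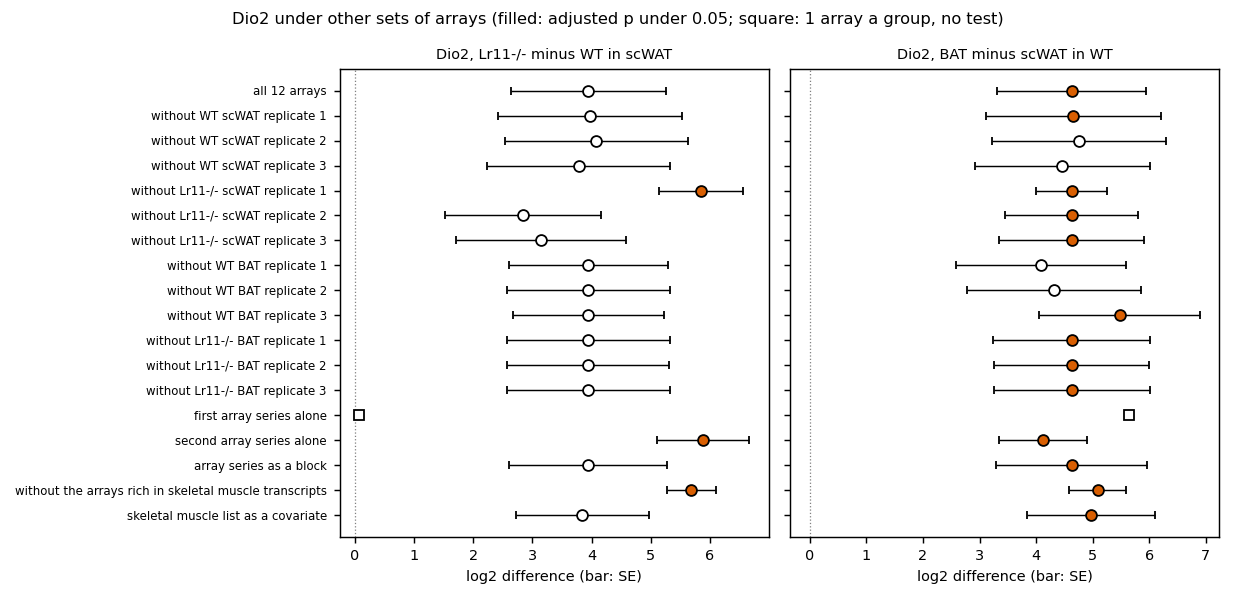
Log2 difference of Dio2 (horizontal axis, with SE bars) between Lr11-/- and WT scWAT on the left and between BAT and scWAT of WT mice on the right, with all 12 arrays, without each array in turn, within each array series, and with allowance for skeletal muscle transcripts. Filled points have an adjusted p under 0.05 and squares are single arrays without a test. Without the arrays rich in skeletal muscle transcripts, WT BAT is left with replicate 2 alone. The genotype difference runs from 0.07 in the first series to 5.88 in the second, and the tissue difference stays between 4.09 and 5.63.

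Between the depots of WT mice, Dio2 was 4.63 higher in BAT (SE 1.32, 95% interval 1.72 to 7.54), 24.7-fold, with an adjusted p of 0.029 and no overlap of the groups. In Lr11-/- mice BAT was 2.13 above scWAT (95% interval -0.78 to 5.03, adjusted p = 0.66), and the groups overlapped. The tissue difference of WT mice was 5.63 in the first series, where each depot was on a slide of its own, and 4.12 (adjusted p = 0.016, 24.4% of probes called) in the second, where all 8 arrays shared a slide. With the slide as a block it was 3.35, with an adjusted p of 0.10. The call was also lost without WT scWAT replicate 2 or 3 or WT BAT replicate 1 or 2, with adjusted p-values from 0.057 to 0.098 and differences from 4.09 to 4.76.

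Slc16a10, the transporter gene, differed little between groups, and its 2 probes did not follow each other. The brighter probe, A_51_P448618 (NM_001114332), had scWAT levels of -0.80, -0.08 and -1.05 in WT mice and of -0.59, -0.16 and 0.15 in Lr11-/- mice. Its BAT levels were 0.15, 0.45 and -0.42 in WT mice, and -0.18, -0.10 and 0.02 in Lr11-/- mice. All 4 groups overlapped. The means rose in the order WT scWAT (-0.64), Lr11-/- scWAT (-0.20), Lr11-/- BAT (-0.09) and WT BAT (0.06), and neighbours in that order had adjusted p-values of 0.38, 0.93 and 1.0. The largest of the planned differences, 0.70 between WT BAT and WT scWAT (95% interval 0.01 to 1.39), had an adjusted p of 0.12, and 0.043 with the skeletal muscle list as a covariate. The dimmer probe, A_52_P527917 (NM_028247), differed by 0.05 in the same comparison (95% interval -1.02 to 1.12), and the correlation of the 2 probes over the 12 arrays was -0.43.

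Among the receptors, Thra differed between the depots and Thrb was low on a single WT scWAT array. The brighter Thra probe, A_51_P475995, had scWAT levels of 3.80, 3.19 and 3.91 in WT mice and of 3.57, 3.43 and 3.52 in Lr11-/- mice. Its BAT levels were 4.28, 4.71 and 4.47 in WT mice, and 4.04, 4.25 and 4.06 in Lr11-/- mice. All 6 BAT arrays were above all 6 scWAT arrays in these scaled levels. As processed intensities the depots overlapped, with 6863, 8364 and 6701 in Lr11-/- BAT against 8811 and 8585 on WT scWAT replicates 1 and 3. Lr11-/- scWAT replicate 1 read 7023, and the lowest WT BAT array 8735. WT BAT was 0.85 above WT scWAT (SE 0.22, 95% interval 0.36 to 1.35), 1.80-fold, with an adjusted p of 0.021. The second probe, A_66_P102879, gave 0.93 (SE 0.27, adjusted p = 0.030) and followed the first over the 12 arrays (r = 0.91). The call of the brighter probe was lost without WT scWAT replicate 2, at 0.63 (adjusted p = 0.055), and without WT BAT replicate 2 or 3 (adjusted p = 0.090 and 0.054). It was also lost without scaling, at 0.53 (adjusted p = 0.26 by limma), and with quantile normalization, at 0.64 (adjusted p = 0.051). Without the arrays rich in skeletal muscle transcripts, WT BAT was left with replicate 2 alone, its highest Thra array, and the difference was 1.21. Within the second series it was 1.03 (adjusted p = 0.047), and in the first 0.48.

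In Lr11-/- mice Thra was 0.61 higher in BAT than in scWAT (95% interval 0.12 to 1.11, adjusted p = 0.45), again without overlap. The genotype differences of Thra were -0.13 in scWAT (95% interval -0.63 to 0.36, adjusted p = 0.73) and -0.37 in BAT (95% interval -0.86 to 0.13, adjusted p = 1.0), where the 3 Lr11-/- arrays were below the 3 WT arrays. The second Thra probe overlapped between genotypes in BAT, at a difference of -0.16. In order, the group means were 3.50 in Lr11-/- scWAT, 3.63 in WT scWAT, 4.12 in Lr11-/- BAT and 4.49 in WT BAT. The step from WT scWAT to Lr11-/- BAT was 0.48 (adjusted p = 0.12, with 31.2% of probes called in that comparison), so no neighbours passed the threshold on the brighter probe. The second probe differed by 0.77 between the same groups and was called by limma (adjusted p = 0.049). Nr1d1, the clock repressor gene whose locus overlaps the 3′ end of Thra on the other strand, differed by 0.18 between the WT depots (adjusted p = 0.85).

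Thrb, read from A_52_P532559, was at -0.21, -2.51 and 0.07 on the scWAT arrays of WT mice and at 0.36, 0.44 and 0.27 on those of Lr11-/- mice. Its BAT levels were 0.40, 0.67 and 0.30 in WT mice, and 0.46, 0.63 and 0.89 in Lr11-/- mice. The 9 arrays outside WT scWAT lay within 0.27 to 0.89, above all 3 WT scWAT arrays. As processed intensities they overlapped, with 601 on WT scWAT replicate 3 against 450 on Lr11-/- scWAT replicate 3. The second probe, A_52_P877015, repeated the pattern (r = 0.98), with -1.82, -4.17 and -1.17 in WT scWAT and -1.12 to -0.60 on the other 9 arrays, and was not well above background on WT scWAT replicate 2. That array, lowest for both probes, was the one with the least adipocyte and the most macrophage transcript.

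The Thrb difference between Lr11-/- and WT scWAT was 1.24 (SE 0.54, 95% interval 0.05 to 2.43, unadjusted p = 0.042 and adjusted p = 0.16 by limma). Without WT scWAT replicate 2 it was 0.42, with an adjusted p of 0.30. Between the WT depots the difference was 1.34 (95% interval 0.15 to 2.52, adjusted p = 0.090), and 0.52 without the same array (adjusted p = 0.12). Both differences share the WT scWAT arrays. Without WT scWAT replicate 3 the tissue difference was 1.82 and passed the threshold (adjusted p = 0.030, 27.9% of probes called). In BAT the genotypes differed by 0.21 (95% interval -0.98 to 1.39, adjusted p = 1.0), and in Lr11-/- mice the depots differed by 0.30 (adjusted p = 0.88). The group means rose from -0.88 ± 1.42 in WT scWAT through 0.36 ± 0.09 in Lr11-/- scWAT and 0.46 ± 0.19 in WT BAT to 0.66 ± 0.21 in Lr11-/- BAT (SD, n = 3), and no neighbours passed the threshold.

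Klf9, the hormone-induced transcription factor gene, was highest on the scWAT arrays rich in skeletal muscle transcripts and did not pass the test in any comparison of all 12 arrays. A_65_P19780 was at 2.50, 1.91 and 4.16 on the scWAT arrays of WT mice and at 4.12, 3.18 and 3.26 on those of Lr11-/- mice. The BAT levels were 3.46, 3.44 and 3.33 in WT mice, and 3.87, 3.54 and 4.04 in Lr11-/- mice. Of these, the arrays rich in skeletal muscle transcripts read 3.46 and 3.33 (WT) and 3.87 (Lr11-/-), and the rest 3.44, 3.54 and 4.04. The 2 scWAT arrays above 4 were WT replicate 3 and Lr11-/- replicate 1, the same arrays that carried skeletal muscle and epithelial transcripts, whose part in the level was not tested beyond the values that follow.

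The Klf9 genotype difference was 0.66 in scWAT (SE 0.49, 95% interval -0.42 to 1.74, adjusted p = 0.40). Without WT scWAT replicate 3 it was 1.32 with an adjusted p of 0.027, where 14.6% of probes were called. Without WT scWAT replicate 2 it was 0.19. Without the 5 arrays rich in skeletal muscle transcripts it was 1.02, and with that list as a covariate 0.71 (adjusted p = 0.25). It was 1.62 in the first series and 0.18 in the second. In BAT the 3 Lr11-/- arrays were above the 3 WT arrays, by 0.41 (95% interval -0.67 to 1.48, adjusted p = 1.0, exact permutation p = 0.1). The depots differed by 0.55 in WT mice (adjusted p = 0.42), and by 1.21 without WT scWAT replicate 3 (adjusted p = 0.022). The order of the group means was WT scWAT (2.86), WT BAT (3.41), Lr11-/- scWAT (3.52) and Lr11-/- BAT (3.81), and no neighbours passed the threshold, with adjusted p-values of 0.42, 0.98 and 0.87.

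**Figure D3:**
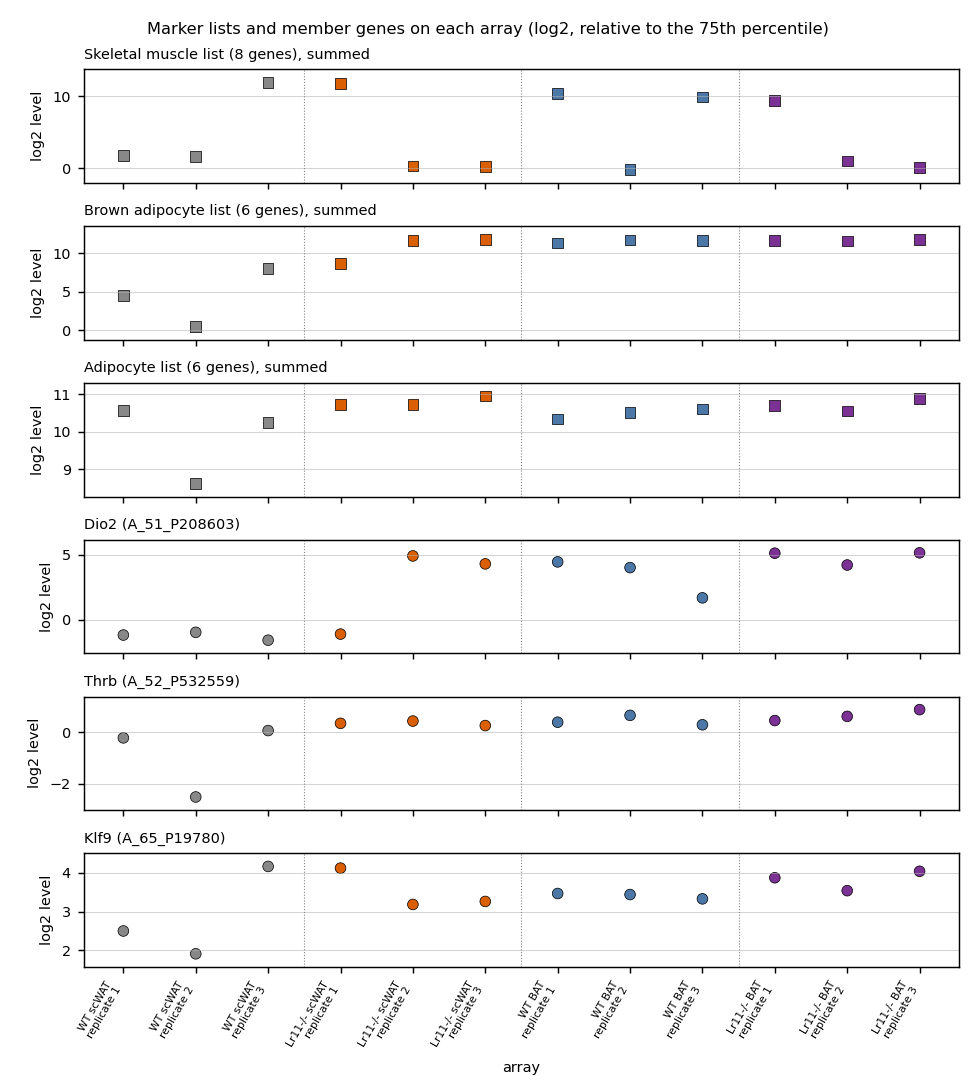
Summed log2 level of 3 marker lists (squares) and log2 level of Dio2, Thrb and Klf9 (circles), relative to the 75th percentile, on each of the 12 arrays, with dotted lines between the groups. Klf9 is above 4 on the scWAT arrays with skeletal muscle sums of 11.88 and 11.76, Thrb is lowest on the array with the lowest adipocyte sum, 8.62, and Dio2 is high in scWAT where the brown adipocyte sum is 11.70 and 11.82.

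Across the 5 genes, each read from its brightest probe, none was called between genotypes in scWAT, where limma called 5.27% of all probes, although 2 of 5 (Dio2 and Thrb) had an unadjusted p under 0.05, as did 27.6% of all probes. Of the 5 genes, 1 (Thrb) had groups that did not overlap, against 20.4% of probes. In BAT none was called, with 0.0187% of all probes called, none had an unadjusted p under 0.05 (2.12% of probes), and 2 of 5 (Thra and Klf9) had groups without overlap, against 12% of probes. No gene was called for a difference of the genotype effect between depots, nor was any probe of the array (0%), and none had an unadjusted p under 0.05 (11% of probes). Their median difference was 0.66 in scWAT and 0.21 in BAT, against 0.04 over all probes in each.

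Between the depots of WT mice 2 of 5 genes, Dio2 and Thra, were called higher in BAT, where 24.8% of all probes were called and 15.7% were called higher. All 5 means were higher in BAT, 3 of 5 without overlap (40.2% of probes), and 4 of 5 had an unadjusted p under 0.05 (40.1% of probes). In Lr11-/- mice none of the 5 was called, against 0.0405% of probes. Of the 5, 1 (Thra) had an unadjusted p under 0.05 (9% of probes), and 2 (Thra and Thrb) had groups without overlap (23.2% of probes). Whether the depots differed less in Lr11-/- than in WT mice is the same test as the difference of genotype effects, which no member passed. Lr11-/- BAT and WT scWAT differ in both depot and genotype. Between them limma called 2 of 5 genes, against 31.2% of probes. These were Dio2 at 6.07 (adjusted p = 0.0082) and Thrb at 1.54 (adjusted p = 0.04995). The second Thrb probe, at 1.53, was not called (adjusted p = 0.070), and the second Thra probe, at 0.77, was (adjusted p = 0.049). Both Thrb differences include WT scWAT replicate 2, the low array for that gene.

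**Figure D4:**
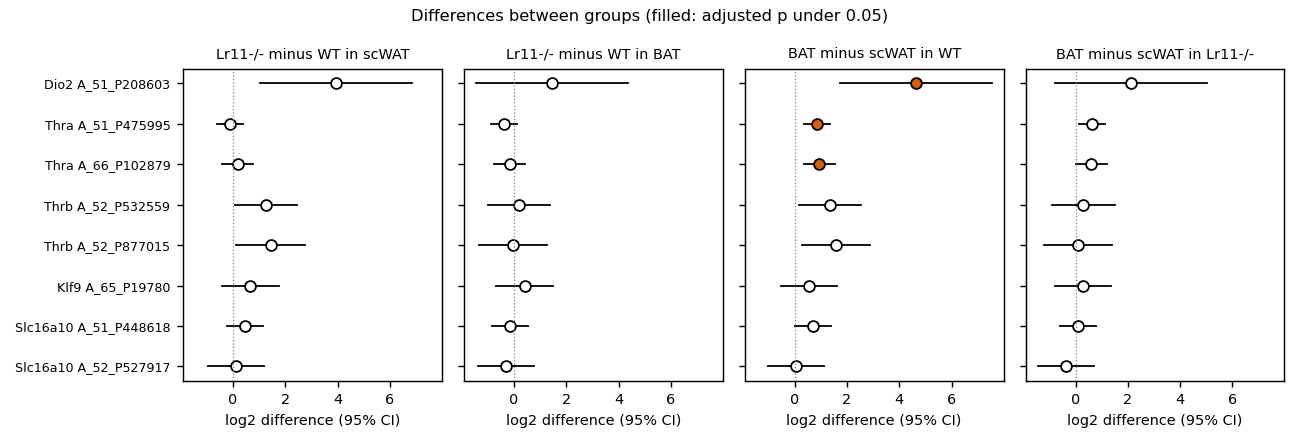
Log2 difference with its 95% interval (horizontal axis) for each of the 8 probes in 4 comparisons, from the limma fit to 12 arrays. Filled points have an adjusted p under 0.05, which are Dio2 and both Thra probes between the depots of WT mice, at 4.63, 0.85 and 0.93. The widest intervals are those of Dio2.

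Of 32 other genes of thyroid hormone handling and action, all tested, 2 were called higher and 1 lower in Lr11-/- than in WT scWAT, 3 of 32 against the 5.27% called over all probes. The 2 that rose were targets, Ucp1 by 10.14 (adjusted p = 0.033) and Gpd2, the mitochondrial glycerol-3-phosphate dehydrogenase, by 4.13 (adjusted p = 0.034). The gene that fell was Slc7a8, an amino acid transporter of the LAT family that also carries iodothyronines, at -2.03 (adjusted p = 0.039). Unadjusted, 9 were higher and 4 lower at p under 0.05 (27.6% of all probes in either direction), and the median of the list was 0.19 against 0.04 over all probes. In BAT none of the 32 was called by limma (0.0187% of probes) and 1 (Slc7a8, at 1.40) had an unadjusted p under 0.05 (2.12% of probes). For the difference of the genotype effects none was called (0% of probes) and 7 had an unadjusted p under 0.05 (11% of probes).

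Ucp1 was at -4.63, -4.52 and 2.92 on the WT scWAT arrays, against 4.39, 9.75 and 10.05 after loss of LR11. Its probe was not well above background on 1 of the WT scWAT arrays. In BAT it spanned 9.45 to 10.07 on the 6 arrays. Ucp1 was thus above the WT range on all 3 Lr11-/- scWAT arrays, and Dio2 on 2 of them. Gpd2 was at 0.09, -0.64 and 0.36 in scWAT of WT mice, against 1.64, 5.18 and 5.39 in that of Lr11-/- mice. Slc7a8 had scWAT levels of 1.16, 1.64 and 0.30 in WT mice against -0.60, -1.19 and -1.22 in Lr11-/- mice. Its BAT levels were -2.67, -2.24 and -1.64 in WT mice and -1.05, -1.29 and -0.01 in Lr11-/- mice, higher without overlap. In that comparison 12% of probes had groups without overlap in either direction. The genotype effects of Slc7a8 in the depots thus had opposite signs, with a difference of -3.43 (SE 0.61, unadjusted p = 0.000185, adjusted p = 0.24).

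Neither of the other deiodinase genes was called between genotypes. Dio1, which also activates thyroxine, spanned -4.47 to -2.47 over the 12 arrays, and its group means differed by 0.00 between genotypes in scWAT. Dio3, the inactivating deiodinase, spanned -5.16 to -1.59 and was -1.41 in Lr11-/- scWAT relative to WT (adjusted p = 0.16). Its scWAT levels overlapped, at -4.32, -1.59 and -2.86 in WT mice and -4.68, -4.18 and -4.14 in Lr11-/- mice. The probe was well above background on only 2 of 3 arrays in Lr11-/- scWAT and in WT BAT. Thrsp, a lipogenic target of triiodothyronine, differed by 5.47 in scWAT (adjusted p = 0.075), with -2.55 on WT scWAT replicate 2 against 5.68 and 3.55 on the other WT arrays. Of the 4 genes that add or remove ubiquitin on type 2 deiodinase, none was called between genotypes (5.27% of probes in scWAT, 0.0187% in BAT). In scWAT, Wsb1 was at -1.59 (adjusted p = 0.067 by limma) and Usp33 at 0.43 (adjusted p = 0.17). Both had groups without overlap, as did 20.4% of probes. Marchf6 and Usp20 differed by -0.02 and 0.03, with overlap.

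Between the depots of WT mice 7 of the 32 were called higher and 1 lower in BAT, with a list median of 0.25 against 0.07 over all probes. These 8 of 32 genes are a share close to the 24.8% of all probes called in this comparison, and the count is thus no result about the list. The higher genes included the transporter gene Slc7a5 by 1.36 (adjusted p = 0.0077). They also included the receptor partners Rxrg by 1.13 (adjusted p = 0.0099) and Rxrb by 0.90 (adjusted p = 0.042). Each list gene was read from its brightest probe alone. The paper's list of genes most raised in Lr11-/- scWAT holds Rxrg by another probe, which was not read here. The other 4 were targets, Ucp1 by 11.84 (adjusted p = 0.0043), Thrsp by 5.87 (adjusted p = 0.029), Gpd2 by 5.57 (adjusted p = 0.0032) and Fasn, the fatty acid synthase gene, by 5.43 (adjusted p = 0.018). Slc7a8 was lower, at -3.21 (adjusted p = 0.0027). None of the 5 corepressor and none of the 5 coactivator genes was called in either direction. In Lr11-/- mice none of the 32 was called between depots by limma, where 0.0405% of all probes were called, and 0 had an unadjusted p under 0.05 (9% of probes).

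**Figure D5:**
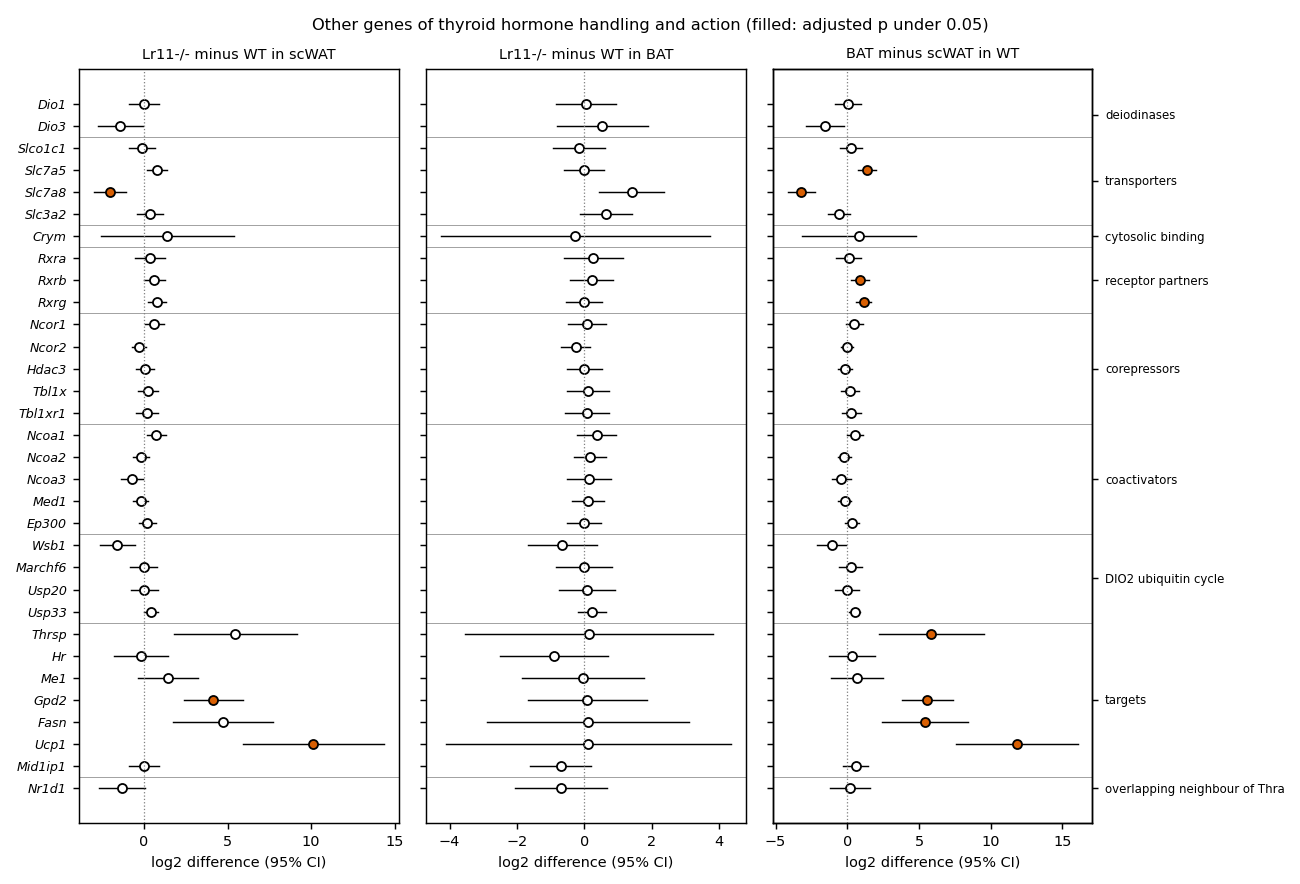
Log2 difference with its 95% interval (horizontal axis, a separate scale in each panel) for the 32 other genes of the thyroid hormone list, grouped by role, between genotypes in scWAT and in BAT and between the depots of WT mice. Filled points have an adjusted p under 0.05: Ucp1, Gpd2 and Slc7a8 in scWAT, none in BAT, and 8 genes between the depots.

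The genes whose levels followed each member most closely were found by Pearson correlation over the 12 arrays among 14709 named genes, each read from its brightest probe, as a description of arrays that share depot, genotype and composition. Dio2 was nearest to Trim32 (r = 0.995), Lactb (0.98), Elof1, Rngtt and Mkks (0.98 each). Thrb was nearest to Slc2a4, the insulin-responsive glucose transporter gene (r = 0.98), and Tppp, Zfp771 and Ddrgk1 were also among its nearest 5. Thra was nearest to Man2a2 (r = 0.94), Hoxa3, Cul9, Cacna1a and Dlk1 (r = 0.90). Klf9 was nearest to Zrsr1 (r = 0.97), Rnf139, Eif4ebp3, Ube2b and Pde4d, and Slc16a10 to Polr3a (r = 0.94), Akap10, Mroh1, Ltbp2 and Ap5b1. No member was among the nearest 5 of another, and between members the correlations ran from -0.13 (Klf9 and Slc16a10) to 0.78 (Thrb and Klf9).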

How the data were processed

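Total RNA of 12 samples was labelled with Cy3 and hybridised to one-colour Agilent mouse arrays, 3 per group, and the slides were read with Agilent Feature Extraction 10.10 per the labels (10.10.1.1 per the file headers). The deposited values used were the background-corrected processed intensity of each spot, not normalized between arrays, and the median and background signal intensities for an alternative. The deposited table of the series held the same intensity values.

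The log2 intensity was taken minus the 75th percentile of 59305 spots that were not controls. Outlier spots were left out and spots of a probe averaged. A probe was tested where every array of some group showed it well above background (32121 of 55681 probes), with 12 arrays in a single fit of group means (limma 3.58.1, R 4.3.3). RefSeq accessions named 27235 probes. Each gene was read from its brightest tested probe. The members and gene lists were chosen with earlier results of these data known. Named genes were all member probes, list genes that were called or were direct comparisons by role, and the 5 nearest genes of each member, except some not reported here. Differences between WT BAT and Lr11-/- scWAT, and between Lr11-/- BAT and WT scWAT, were added to order the groups. Array number limits the precision. The procedure was tested on simulated data.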

Additional observations from a re-analysis of the deposited data

How the results depend on the processing

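No paired analysis was possible because the labels carry no replicate numbers, and those used here follow accession order. The array series as a block left the number of member genes called as reported in each of the 5 comparisons it was run for. Of the alternatives, 30 were planned and 2, which concern skeletal muscle transcripts, were chosen after seeing the data. Between WT depots the number of member genes called, 2 in the report, was 1 with quantile normalization, no scaling, array weights or the genotype's arrays alone (Dio2 each time), 1 with no filter or the slide as a block (Thra), 0 at an adjusted p of 0.01, 3 with skeletal muscle as a covariate (Slc16a10 added), and 0 to 3 when each array was left out. It was 0 without WT scWAT replicate 2 or WT BAT replicate 2, and 1 without WT BAT replicate 1 or 3. Of all probes, 24.8% were called between WT depots in the report and 27.9% without WT scWAT replicate 3. Of 32121 probes, 8406 were called with quantile normalization, 7192 without scaling and 3993 with the slide as a block. With no filter, 5794 of 55681 were called. Between genotypes in scWAT the number of member genes called, 0 in the report, was 1 (Dio2) in the second series, with array weights and at an adjusted p of 0.1, and 0 to 1 when each array was left out. Of all probes, 5.27% were called there in the report, 21.7% in the second series, 19.6% without Lr11-/- scWAT replicate 1 and 14.6% without WT scWAT replicate 3. For the difference of genotype effects the number of member genes was 0 to 1 on leaving out arrays (3.77% of probes called without Lr11-/- scWAT replicate 1), and between Lr11-/- depots it was 1 (Thra) with array weights. In BAT it stayed at 0 between genotypes in every alternative run.

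Some differences turned sign, none of them called with all 12 arrays. The Slc16a10 difference between Lr11-/- depots was -0.018 without scaling, -0.026 with the slide as a block, -0.040 in the second series and on the arrays poor in skeletal muscle transcripts, -0.12 with probes averaged, and -0.086 to 0.28 on leaving out arrays. Its BAT genotype difference was -0.39 to 0.048 on leaving out arrays. The Klf9 difference of genotype effects was -0.22 in the second series, -0.13 with array weights, and -0.22 to 0.91 on leaving out arrays, and its difference between Lr11-/- depots was -0.25 in the first series. The Dio2 difference of genotype effects, 2.50 with all arrays, was -0.60 in the first series, which has 1 array a group. The Thra genotype difference in scWAT was 0.024 with probes averaged and -0.35 to 0.0066 on leaving out arrays. The cause was not tested.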
